A study of Mus musculus with 16 samples.

Results

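The genes described here encode 5 phospholipases of the phospholipase A2 group, Pla2g4a, Pla2g6, Pla2g7, Pla2g12a and Pnpla8, and 5 acyltransferases that act on lysophospholipids, Lpcat1, Lpcat2, Lpcat3, Lpcat4 and Mboat7. They were chosen by name for their enzymatic role, and all 10 were found among the 33072 genes of the count table. mRNA had been sequenced from 4T1 cells, which metastasise in BALB/c mice, and from 67NR cells, which form primary tumors only. Both are cell lines from the same spontaneous mammary carcinoma, so that each stands for a single line and not for a class of tumors. Each line had been grown in medium with fetal bovine serum and kept for 24 h with 15 µM CIX, an inhibitor of cPLA2α, or with the vehicle DMSO. This gave 4 groups of 4 biological replicates, 16 samples in all.

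Phospholipases A2 cut the fatty acid from the middle position of a membrane phospholipid and release a free fatty acid and a lysophospholipid. cPLA2α, the product of Pla2g4a, prefers phospholipids that carry arachidonic acid, the substrate of the prostaglandin and leukotriene pathways. Lysophospholipid acyltransferases run the reaction in reverse and attach a fatty acid to a lysophospholipid, and the alternation of both steps, the Lands cycle, sets which fatty acids the membrane holds. CIX was made to block the cPLA2α enzyme, and mRNA levels do not measure that activity.

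The deposited values were estimated counts per gene, with totals between 21715700 and 29450629 per sample. Levels are given as CPM, counts scaled by TMM to a common library size. Levels of different genes are compared as TPM, which also divides by the mean length of all annotated transcripts of a gene. 67NR vehicle replicate 13 stood apart from its group, with 646 of 12629 genes more than 2-fold from the group mean, as compared to 267 to 485 genes in the other 15 samples. The 9 mammary epithelial markers were all present in 4T1 (summed TPM from 3173 to 3560), whereas their sum was between 0.837 and 5.23 TPM in 67NR. The 8 mesenchymal markers summed to between 4113 and 7453 TPM in 67NR and between 1409 and 3118 TPM in 4T1, and in both lines the sum was higher in every CIX sample than in every vehicle sample. Vim and Fn1 made up most of this sum, and others moved otherwise, as Pdgfrb in 67NR with 9.22 to 14.0 TPM in vehicle and 6.76 to 7.68 TPM in CIX treated samples, while 5 of the 8 had means below 1 TPM in 4T1. Leukocyte, endothelial and adipocyte markers summed to at most 2.15 TPM in any sample, and the 3 erythroid markers to between 5.02 and 14.9 TPM in 67NR and at most 0.591 TPM in 4T1. The erythroid sum in 67NR was almost all Hba-a1, with means of 9.12 TPM with vehicle and 12.2 TPM with CIX. Hbb-bs and Alas2 had means of at most 0.0822 TPM there, and Alas2 was higher in 4T1 (means of 0.264 and 0.319 TPM). The part of these markers in the results below was not tested, and in RNA from bulk cultures fewer cells of a type and less RNA per cell cannot be told apart.

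After CIX, Lpcat4 rose in 4T1 cells and no other member passed the threshold in either line. A gene was called when its Benjamini-Hochberg adjusted p-value in limma-voom was below 0.001. In 4T1, 1 of the 10 members was called between CIX and vehicle, where 9.28% of the 11677 genes tested were called and 5.33% were called higher. These counts depend on the processing. DESeq2 called 3 of the 10 members and 26.5% of all genes, and fits without single samples called 0 to 2 members. At a looser threshold of 0.05, 5 members were called in 4T1 (Lpcat1, Lpcat2, Lpcat4 and Pla2g12a higher, Pla2g6 lower), against 42.7% of all genes. For these same 5 genes the CIX samples did not overlap with the vehicle samples, which held for 39.6% of all genes. In 67NR, 0 of the 8 members tested were called by limma-voom or edgeR, where 0.389% of 11583 genes were called by limma-voom. DESeq2, which called 8.98% of all genes, called none of them and gave Pla2g4a no adjusted p. Pla2g6 alone had an unadjusted p below 0.05 in limma-voom, which held for 32.8% of all genes. At 0.05 again 0 of 8 were called against 17.8% of all genes, and in 0 of 8 the groups did not overlap, against 23.3% of all genes. The responses of the lines differed for Lpcat4 alone, 1 of 10 members tested for the interaction, where 7.86% of 12629 genes were called and 4.81% were called higher. At 0.05 Pla2g6 was called as well, 2 of 10 against 29.3% of all genes. The median log2 fold change of the members was 0.44 in 4T1 and 0.11 in 67NR, and that of all genes tested was -0.01 in both lines. The share of members called in 4T1 was thus near that of all genes.

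**Figure D1:**
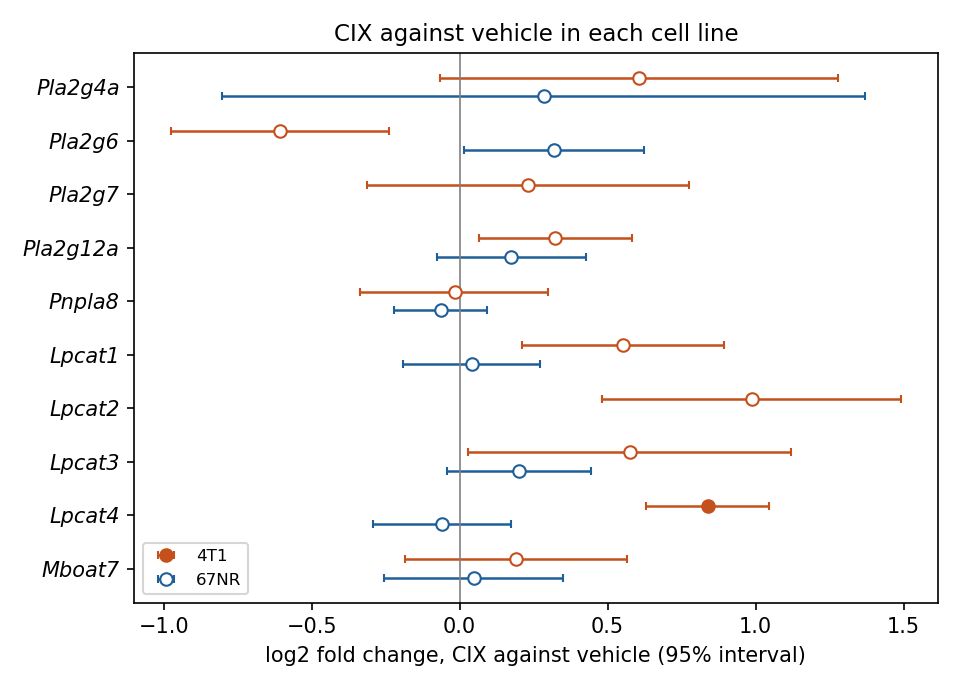
Log2 fold change of each member between CIX and vehicle (x axis) with its 95% interval from limma-voom, in 4T1 (orange) and in 67NR (blue), n = 4 per group. Filled points passed the adjusted p threshold of 0.001 and open points did not, and Pla2g7 and Lpcat2 were too low in 67NR to be tested there. Lpcat4 in 4T1, at 0.84, is the single filled point.

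Pla2g4a (ENSMUSG00000056220) encodes the enzyme that CIX targets and lies on the minus strand of chromosome 1 (GRCm38, 149829618 to 149961290). The 120 bases before its start (RefSeq, chr1:149961291-149961410, minus strand) are shown because the gene is the drug target, with each CG dinucleotide in capitals.
Pla2g4a: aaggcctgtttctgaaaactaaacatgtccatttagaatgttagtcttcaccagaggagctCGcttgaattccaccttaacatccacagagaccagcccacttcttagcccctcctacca
This stretch holds 1 CG. The RefSeq promoter window of Pla2g4a, 300 bases around the start, holds 6, and 43.6% of 32851 such windows hold fewer.

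In vehicle treated 67NR cells Pla2g4a was at 60.2 CPM in replicate 1, 80.9 CPM in replicate 5, 76.5 CPM in replicate 9 and 326 CPM in replicate 13. In CIX treated 67NR cells it was at 108 CPM in replicate 2, 116 CPM in replicate 6, 177 CPM in replicate 10 and 125 CPM in replicate 14. All 4 CIX samples thus lay above 3 of the vehicle samples and below the fourth, replicate 13, the library that stood apart over all genes. In vehicle treated 4T1 cells the levels were 65.4 CPM in replicate 3, 92.7 CPM in replicate 7, 162 CPM in replicate 11 and 57.4 CPM in replicate 15. In CIX treated 4T1 cells they were 119 CPM in replicate 4, 108 CPM in replicate 8, 191 CPM in replicate 12 and 138 CPM in replicate 16. Here too, the CIX samples lay above 3 of the 4 vehicle samples, and replicate 11 fell among them.

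**Figure D2:**
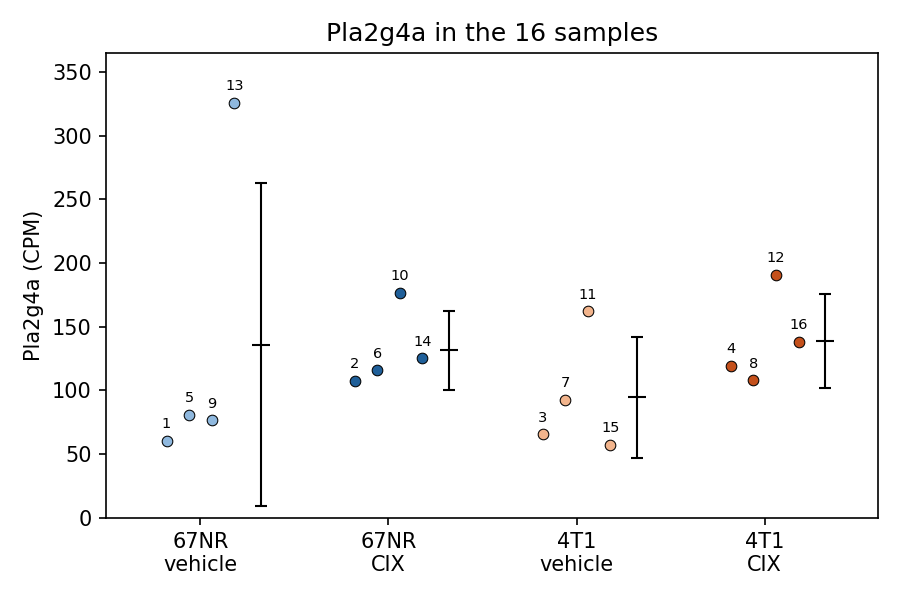
Pla2g4a level in CPM (y axis) in the 16 samples by cell line and treatment (x axis). Points are samples with the replicate number of the labels, and bars give the mean and SD of the 4 samples of a group. 67NR vehicle replicate 13, at 326 CPM, is the highest sample, and the other 15 lie between 57.4 and 191 CPM.

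No comparison of Pla2g4a passed the threshold. The group means were 136 ± 127 CPM in 67NR with vehicle, 131 ± 31.2 CPM in 67NR with CIX, 94.4 ± 47.7 CPM in 4T1 with vehicle and 139 ± 36.8 CPM in 4T1 with CIX (SD, n = 4 each). CIX samples of 4T1 differed from vehicle by 0.61 on the log2 scale (standard error 0.30, adjusted p = 0.131 in limma-voom, exact permutation p = 0.171, two-sided). In 67NR it was 0.28 (standard error 0.48, adjusted p = 0.727), with a 95% interval from -0.80 to 1.37. When 67NR vehicle replicate 13 was left out this value became 0.84 (adjusted p = 0.0173), and when 4T1 vehicle replicate 11 was left out the value in 4T1 became 0.90 (adjusted p = 0.0134). Between the lines, the log2 fold change of 4T1 as compared to 67NR was -0.27 with vehicle (adjusted p = 0.677) and 0.06 with CIX (adjusted p = 0.80). Without replicate 13 the difference with vehicle was 0.23 (adjusted p = 0.571). The response differed by 0.32 between the lines (adjusted p = 0.74), and by -0.22 without replicate 13 (adjusted p = 0.733). DESeq2 gave Pla2g4a no adjusted p in 67NR or for the difference in response. The spread of Pla2g4a within groups, an SD of 0.69 on the log2 scale, was larger than that of 89.8% of the 12629 genes, whose median was 0.23. Without replicate 13 it was 0.44, larger than that of 80.1% of the genes.

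The genes whose deviations from the group means followed those of Pla2g4a most closely over the 16 samples were Myo9b (Pearson's r = 0.958), Inppl1 (0.949), Rab14 (0.944), Zdhhc18 (0.94) and Mia3 (0.939). They were picked as the highest of 12628 genes, so that the values are a description. Without 67NR vehicle replicate 13 the same correlations were 0.885, 0.912, 0.852, 0.861 and 0.868. In that replicate all 5 genes were at the highest level of their group, as for Inppl1 with 643 CPM as compared to 213 to 283 CPM in the other vehicle treated 67NR samples. The samples share the scaling and the group means in these correlations.

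**Figure D3:**
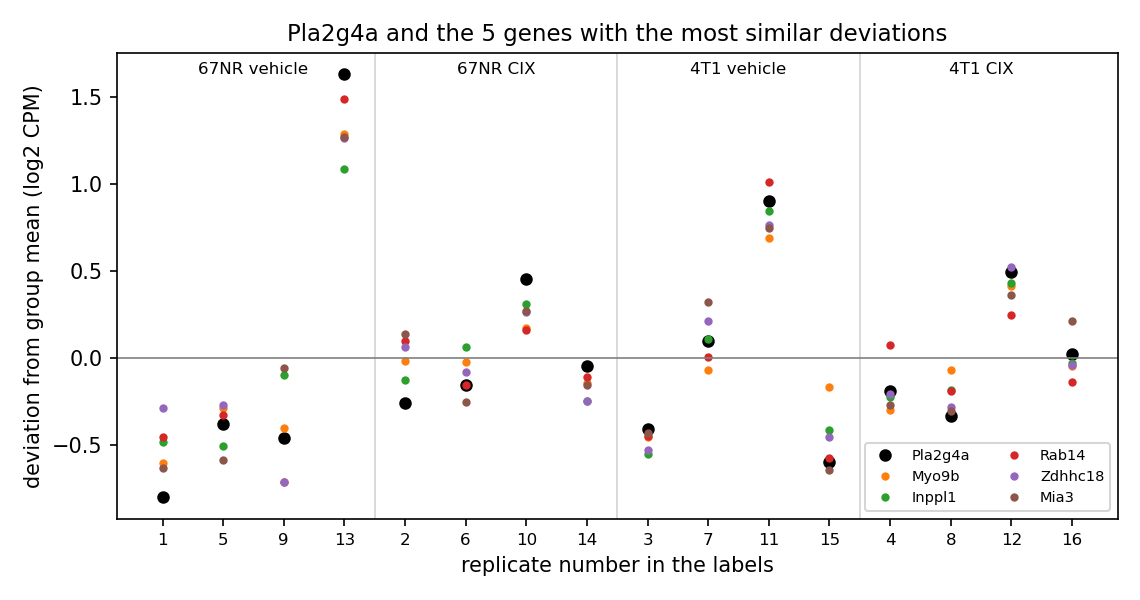
Deviation of each sample from its group mean in log2 CPM (y axis) for Pla2g4a (black) and the 5 genes most similar to it (colors), by sample (x axis, replicate numbers under the group names). All 6 genes lie furthest above the mean in 67NR vehicle replicate 13, and next in 4T1 vehicle replicate 11.

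Pla2g6 (ENSMUSG00000042632, chromosome 15, 79286228 to 79328390, minus strand) encodes the calcium-independent phospholipase A2 beta, which acts in membrane remodelling. Its promoter bases outside annotated exons are shown because it was called between the vehicle treated lines, though not between the CIX treated lines. They (RefSeq, chr15:79328391-79328491, minus strand) hold 8 CG dinucleotides in 101 bases, shown in capitals.
Pla2g6: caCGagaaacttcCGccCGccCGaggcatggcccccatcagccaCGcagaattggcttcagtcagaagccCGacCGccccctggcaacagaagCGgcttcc
In 4T1 with vehicle Pla2g6 was at 89.2, 84.1, 57.3 and 93.9 CPM in replicates 3, 7, 11 and 15. With CIX it was at 55.9, 56.9, 54.9 and 49.1 CPM in replicates 4, 8, 12 and 16. Every CIX sample was lower than every vehicle sample, and replicate 11, the lowest vehicle sample, was close to the highest CIX sample. The log2 fold change of -0.61 (standard error 0.16) had an adjusted p of 0.0153 and was not called. It became -0.78 without replicate 11 (adjusted p = 9.79e-04), and DESeq2 called it with all samples (adjusted p = 9.41e-04). In 67NR, the level was between 30.4 and 39.5 CPM with vehicle and between 37.3 and 52.0 CPM with CIX, and the log2 fold change of 0.32 was not called (adjusted p = 0.136). The responses of the lines thus had opposite signs, and their difference of -0.93 (standard error 0.22, adjusted p = 0.00489) missed the threshold. It was called by DESeq2 (-0.96, adjusted p = 2.57e-04), with sample quality weights (-1.04, adjusted p = 3.76e-04) and without 4T1 vehicle replicate 11 (-1.09, adjusted p = 2.38e-04).

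With vehicle, Pla2g6 was 2.38-fold higher in 4T1 than in 67NR (log2 fold change 1.25, standard error 0.18, adjusted p = 2.27e-04), with no overlap between the lines. With CIX the log2 fold change was 0.34 (adjusted p = 0.0335), which was not called, and the lines overlapped.

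Pla2g7 (ENSMUSG00000023913, chromosome 17, 43568098 to 43612201, plus strand) encodes the platelet-activating factor acetylhydrolase of plasma, a secreted enzyme that inactivates this lipid mediator. In 4T1 it was at 6.55, 6.78, 8.64 and 7.66 CPM with vehicle in replicates 3, 7, 11 and 15, and at 11.8, 9.99, 5.68 and 9.93 CPM with CIX in replicates 4, 8, 12 and 16. Replicate 12 was the lowest of all 8 and the other CIX samples were the highest. The log2 fold change of 0.23 was not called (standard error 0.24, adjusted p = 0.467). In 67NR, each sample held between 0 and 4 counts of Pla2g7, where 3 counts were taken as the limit of detection (0.11 to 0.137 CPM). Summed over the vehicle samples, 708 counts in 4T1 and 5 counts in 67NR gave a ratio of 143 (95% interval 60.9 to 441). Over the CIX samples 920 and 4 counts gave a ratio of 220.1 (95% interval 85.7 to 810). All 4 of these counts in 67NR were in replicate 10, and without it no ratio can be formed, since the other 3 samples were at 0. These intervals cover counting error only.

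Pla2g12a (ENSMUSG00000027999, chromosome 3, 129878606 to 129895825, plus strand) encodes a secreted phospholipase A2. In 4T1 it was at 31.5, 35.5, 38.5 and 33.5 CPM with vehicle and at 40.4, 43.4, 52.9 and 43.1 CPM with CIX. The groups did not overlap, but the log2 fold change of 0.32 (standard error 0.12, adjusted p = 0.0468) was not called. In 67NR it ranged from 24.4 to 36.5 CPM with vehicle and from 33.3 to 38.0 CPM with CIX (log2 fold change 0.18, adjusted p = 0.314). Pnpla8 (ENSMUSG00000036257, chromosome 12, 44221370 to 44322532, plus strand), the calcium-independent phospholipase A2 gamma found in mitochondria and peroxisomes, differed little with CIX. Its log2 fold change was -0.02 in 4T1 (95% interval -0.34 to 0.30) and -0.06 in 67NR (-0.22 to 0.09). Pnpla8 was lower in vehicle treated 4T1 (46.2 to 54.9 CPM) than in vehicle treated 67NR (56.7 to 68.5 CPM) in every sample, with a log2 fold change of -0.32 that was not called (adjusted p = 0.0122).

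**Figure D4:**
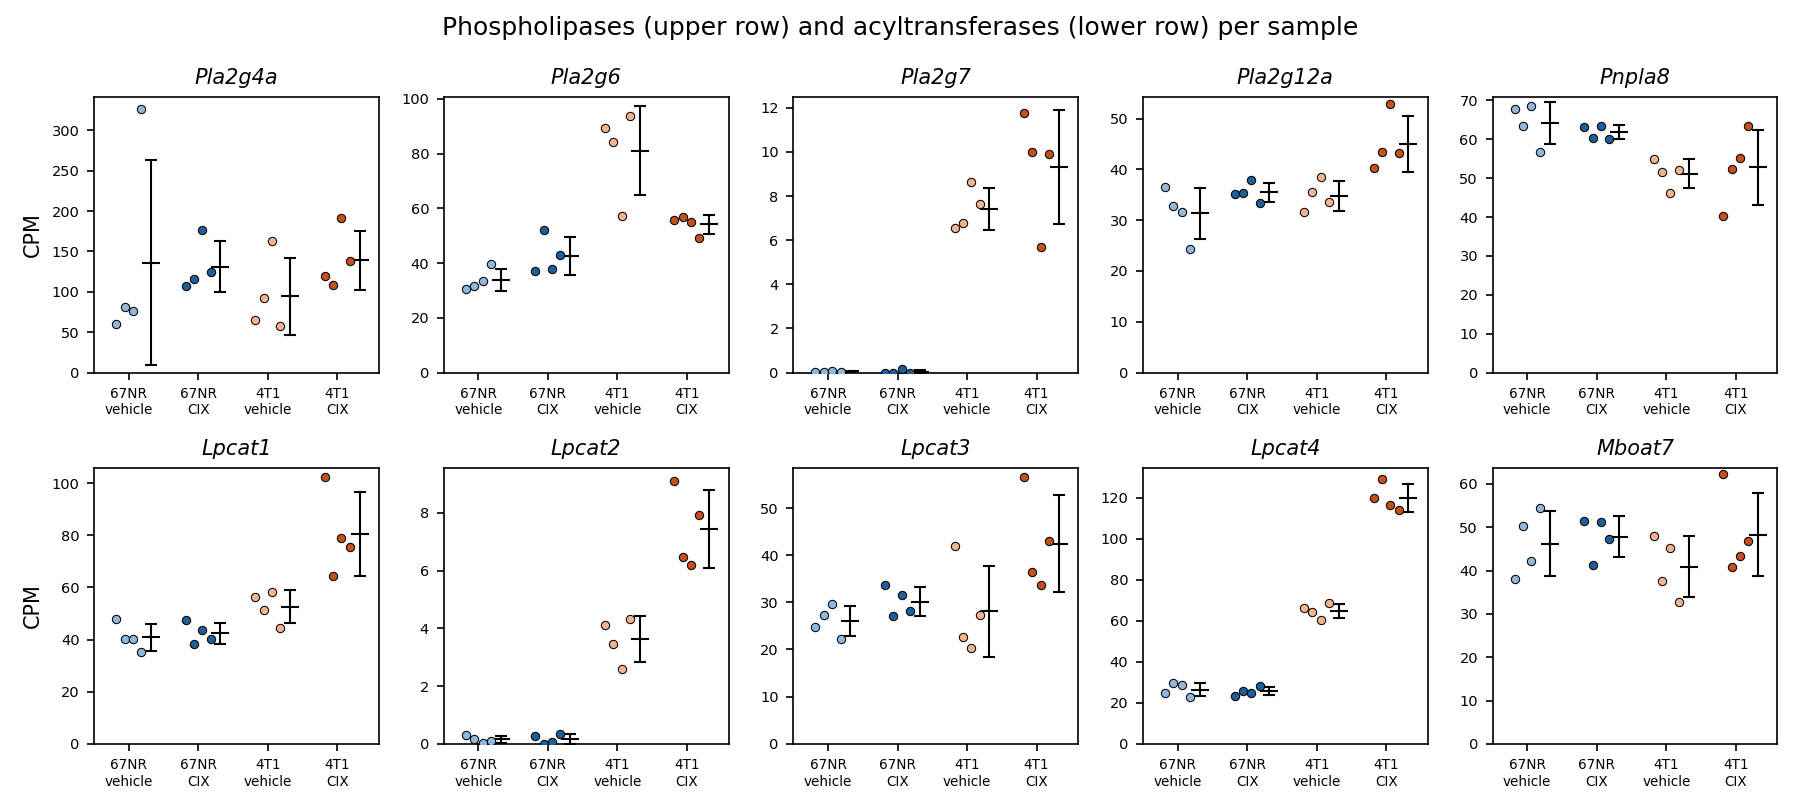
Level of each member in CPM (y axis, a separate scale for each gene) in the 16 samples by cell line and treatment (x axis), phospholipases in the upper row and acyltransferases in the lower row. Points are samples, and bars give the mean and SD of the 4 samples of a group. Lpcat4 forms 3 levels, 22.6 to 29.6 CPM in 67NR, 60.5 to 68.7 CPM in 4T1 with vehicle and 114 to 129 CPM in 4T1 with CIX, while Pla2g7 and Lpcat2 lie near 0 in 67NR.

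Lpcat4 (ENSMUSG00000027134, chromosome 2, 112239468 to 112247111, plus strand) encodes an acyltransferase of the endoplasmic reticulum, reported to prefer lysophosphatidylethanolamine. In vehicle treated 4T1 cells it was at 66.1 CPM in replicate 3, 64.3 CPM in replicate 7, 60.5 CPM in replicate 11 and 68.7 CPM in replicate 15. With CIX it was at 119.9 CPM in replicate 4, 129 CPM in replicate 8, 117 CPM in replicate 12 and 114 CPM in replicate 16. The groups were far apart as compared to their spread, with means of 64.9 ± 3.46 CPM and 119.9 ± 6.69 CPM (SD, n = 4 each). This was a 1.79-fold rise, with a log2 fold change of 0.84 (standard error 0.09, adjusted p = 2.05e-04 in limma-voom). Exact permutation of the samples gave p = 0.0286, the smallest that 4 samples against 4 can give. The call was lost without 4T1 vehicle replicate 7 (0.84, adjusted p = 0.00135) and without 4T1 CIX replicate 8 (0.80, adjusted p = 0.00109), where the size of the change was nearly the same.

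In 67NR, Lpcat4 was at 25.0, 29.6, 28.5 and 22.6 CPM with vehicle in replicates 1, 5, 9 and 13 and at 23.4, 25.8, 24.9 and 28.0 CPM with CIX in replicates 2, 6, 10 and 14. The treatments overlapped throughout, and the log2 fold change was -0.06 (95% interval -0.29 to 0.17, adjusted p = 0.733). The response was larger in 4T1 by 0.89 on the log2 scale (standard error 0.14, adjusted p = 1.93e-04), and this interaction was called in each fit that left out a sample (0.84 to 0.97). Lpcat4 was also higher in 4T1 than in 67NR, 2.47-fold with vehicle (adjusted p = 5.06e-06) and 4.63-fold with CIX (adjusted p = 1e-07).

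Lpcat1 (ENSMUSG00000021608, chromosome 13, 73467197 to 73516422, plus strand) encodes an acyltransferase that makes saturated phosphatidylcholine, known best from lung surfactant. Its promoter bases outside annotated exons (RefSeq, chr13:73467111-73467196, plus strand) are shown because it was called between the CIX treated lines, and hold 6 CG dinucleotides in 86 bases.
Lpcat1: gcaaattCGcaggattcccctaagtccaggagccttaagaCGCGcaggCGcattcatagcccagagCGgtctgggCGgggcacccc
In 4T1, Lpcat1 was at 56.4, 51.4, 58.3 and 44.4 CPM with vehicle in replicates 3, 7, 11 and 15 and at 102.5, 64.4, 79.1 and 75.6 CPM with CIX in replicates 4, 8, 12 and 16. Every CIX sample was above every vehicle sample, and the log2 fold change of 0.55 (standard error 0.15, adjusted p = 0.0163) was not called. In 67NR the log2 fold change was 0.04 (95% interval -0.19 to 0.27). With CIX, Lpcat1 was 1.85-fold higher in 4T1 than in 67NR (log2 fold change 0.89, standard error 0.15, adjusted p = 4.70e-04). Of 8 fits without a single sample, 6 lost that call, those without 67NR CIX replicates 2, 6, 10 or 14 and those without 4T1 CIX replicates 12 or 16 (adjusted p from 0.00113 to 0.00261, log2 fold change from 0.79 to 0.94). With vehicle, the log2 fold change between the lines was 0.37 (adjusted p = 0.0171).

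Lpcat2 (ENSMUSG00000033192, chromosome 8, 92855339 to 92919279, plus strand) encodes the acyltransferase that also makes platelet-activating factor in inflammatory cells. In 4T1 it was at 4.12, 3.48, 2.59 and 4.33 CPM with vehicle and at 9.11, 6.48, 6.19 and 7.95 CPM with CIX, in the same order of replicates as for Lpcat1. The groups did not overlap, and the log2 fold change of 0.99 (standard error 0.22, adjusted p = 0.00681) was the largest of the members in 4T1 and was not called. DESeq2 called it (adjusted p = 2.55e-04). In 67NR each sample held between 0 and 8 counts. Summed over the vehicle samples, 349 counts in 4T1 and 15 in 67NR gave a ratio of 23.5 (95% interval 14.0 to 42.4), and over the CIX samples 739 and 16 counts gave a ratio of 44.2 (27.0 to 77.7), again with counting error only. Without 67NR vehicle replicate 1, which held 8 of the 15 counts, the ratio was 37.2. Without 67NR CIX replicate 14, which held 8 of the 16 counts, it was 66.7.

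Lpcat3 (ENSMUSG00000004270, chromosome 6, 124663027 to 124704418, plus strand), which places polyunsaturated fatty acids into phospholipids and is a known target of the liver X receptors, was at 42.0, 22.6, 20.3 and 27.4 CPM in 4T1 with vehicle. With CIX it was at 56.6, 36.4, 33.7 and 43.0 CPM. Replicate 3 of the vehicle group lay among the CIX samples, and the log2 fold change of 0.57 (standard error 0.24, adjusted p = 0.0844) was not called. In 67NR it ranged from 22.3 to 29.7 CPM with vehicle and from 27.1 to 33.6 CPM with CIX (log2 fold change 0.20, adjusted p = 0.231). Mboat7 (ENSMUSG00000035596, chromosome 7, 3677789 to 3693523, minus strand) attaches arachidonic acid to lysophosphatidylinositol. It lay between 32.8 and 62.3 CPM in all 16 samples, and none of its comparisons was called. Its log2 fold change with CIX was 0.19 in 4T1 (95% interval -0.18 to 0.56) and 0.05 in 67NR (-0.25 to 0.35). Exons of Lpcat3 share 334 bases with Emg1 and those of Mboat7 share 277 bases with Tsen34 on the opposite strand, and the strand setting of the counting is not given in the sources used here.

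Between the lines, 2 of the 8 members tested were called with vehicle (Pla2g6 and Lpcat4, both higher in 4T1), where 40% of 11058 genes were called and 20.4% were called higher. With CIX 2 of 8 were called (Lpcat1 and Lpcat4, both higher in 4T1), where 34.2% of 10949 genes were called and 18.3% were called higher. At 0.05, 4 of 8 were called with vehicle, against 67.4% of all genes, and 5 of 8 with CIX, against 63.9%. The lines did not overlap in 3 of 8 members with vehicle, against 61.6% of all genes, and in 4 of 8 with CIX, against 57.4%. Log2 fold changes not given above, none called, were those of Pla2g12a (0.16 with vehicle, 0.32 with CIX) and Lpcat3 (0.06 and 0.44). The others were those of Mboat7 (-0.17 and -0.02) and, with CIX, Pnpla8 (-0.27). Pla2g7 and Lpcat2 were left out of these fits, since their TPM was below 1 in all 67NR samples, and in a fit without this filter both were called in both comparisons (adjusted p from 7.31e-08 to 1.71e-05). The vehicle and CIX comparisons of the lines use the same groups as the comparisons of CIX with vehicle and are not independent of them.

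**Figure D5:**
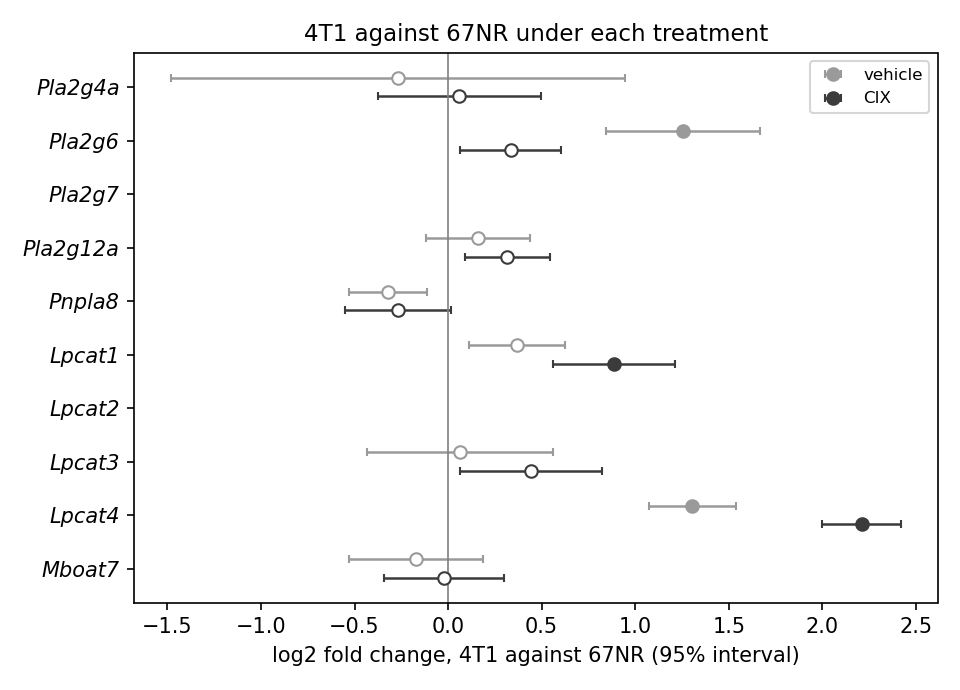
Log2 fold change of each member between 4T1 and 67NR (x axis) with its 95% interval from limma-voom, with vehicle (grey) and with CIX (black), n = 4 per group. Filled points passed the adjusted p threshold of 0.001, and Pla2g7 and Lpcat2 were left out by the filter on low values. Lpcat4 lies at 1.31 with vehicle and at 2.21 with CIX, and Pla2g6 at 1.25 and 0.34.

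Per transcript length, Pla2g4a had the highest mean level of the members in 67NR, with 96.2 ± 85.5 TPM in vehicle and 95.5 ± 24.7 TPM in CIX treated cells (SD, n = 4). Without replicate 13 the mean with vehicle was 53.6 ± 8.53 TPM (SD, n = 3), still the highest of the members. Its samples lay above all samples of Mboat7 with vehicle (35.2 ± 4.90 TPM) and of Lpcat3 with CIX (36.9 ± 3.20 TPM), which came next. The 7 members from Mboat7 to Pnpla8 lay between means of 25.1 and 35.2 TPM in 67NR with vehicle and overlapped with their neighbours in that order. In 4T1 Lpcat4 came first, with 76.7 ± 7.64 TPM in vehicle and 130.1 ± 9.22 TPM in CIX treated cells, and overlapped with Pla2g4a (72.4 ± 33.2 and 99.1 ± 23.9 TPM). That rank depends on the approximated lengths. In CPM, Pla2g4a had a higher mean than Lpcat4 with vehicle (94.4 against 64.9 CPM) and with CIX (139 against 119.9 CPM). With vehicle Pla2g6 was above Lpcat4 as well (81.1 CPM). Pla2g6 was the third in vehicle treated 4T1 (66.7 ± 15.9 TPM) and the fifth with CIX (40.7 ± 2.79 TPM). Pnpla8, Pla2g7 and Lpcat2 were the lowest in both 4T1 groups, with 2.85 ± 0.717 TPM of Lpcat2 in vehicle and 5.35 ± 1.02 TPM in CIX treated cells.

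The 5 acyltransferases together summed to between 113 and 136 TPM in vehicle and between 119 and 139 TPM in CIX treated 67NR samples. In 4T1 the sum lay between 172 and 216 TPM with vehicle and between 252 and 326 TPM with CIX. In 67NR with vehicle the sum was divided nearly evenly between Mboat7 (28.1%), Lpcat3 (25.3%), Lpcat1 (23.4%) and Lpcat4 (23.0%). In 4T1, Lpcat4 made up 40.4% ± 3.97 of the sum with vehicle and 46.8% ± 5.37 with CIX (SD, n = 4), and Mboat7 17.6% ± 2.29 and 12.9% ± 1.19. The share of Mboat7 was lower in every CIX sample than in every vehicle sample of 4T1, while its own level was not called as changed. These sums and shares rest on the same approximated lengths.

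The RefSeq promoter windows of the 10 members, 250 bases before and 50 after the start (GRCm38.p6), differed widely in CG content. The start that RefSeq uses lies 2578 bases from the GENCODE gene start for Pla2g12a and 47784 bases for Pnpla8, and within 537 bases for the other members. In Pla2g7, Lpcat4 and Mboat7 all 120 bases before it are annotated as exon in GENCODE. Lpcat4 had 45 CG dinucleotides, more than 98.1% of all windows, and Lpcat3 had 36 (more than 93.8%). Pla2g12a had 4 and Pla2g4a 6, where the median of all windows was 7. The letters GGGCGG, on either strand, were found in 8 of the 10 windows and in 35.7% of all windows, and Pla2g4a and Pla2g12a were those without. TATAAA was found in Lpcat2 alone, and in 13.6% of all windows. CCAAT was found in 4 of the 10 and in 37.4% of all windows. These are matches of letters and say nothing of binding.

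Among 132 further genes of phospholipid metabolism and its regulation, in 8 lists, 99 were tested in 4T1 and 7 were called after CIX, 5 higher and 2 lower, where 9.28% of all genes were called. DESeq2 called 23 of the list genes, against 26.5% of all genes. Of the 8 other phospholipases tested, Pla1a fell (log2 fold change -1.06, from 40.7 to 20.2 CPM), which cuts phosphatidylserine at the outer position and is thus a phospholipase A1. Of 13 other acyltransferases, Mboat1, which acts on lysophosphatidylserine, rose by 1.39 and Tmem68 fell by 1.18 on the log2 scale. Abhd6, a hydrolase of monoacylglycerols and lysophospholipids, rose by 0.96, as 1 of 12 genes of lysophospholipid removal. Ptdss2, a phosphatidylserine synthase, rose by 2.41 (from 6.13 to 33.0 CPM), as 1 of 21 genes of phospholipid synthesis. Lta4h, a hydrolase of leukotriene synthesis, rose by 1.26 (from 44.2 to 109.9 CPM), as 1 of 16 genes of arachidonate use. Camk2d, a kinase of the family that phosphorylates cPLA2α, rose by 1.52 (from 46.9 to 134 CPM), as 1 of 13 regulators of cPLA2α. None of the 10 genes of platelet-activating factor and ether lipids and none of the 6 genes of the LXR group were called by limma-voom or edgeR in 4T1, where DESeq2 called 0 and 1 of them and 3 and 4 had an unadjusted p below 0.05, which held for 51.1% of all genes. The median log2 fold change was between -0.41 (LXR group) and 0.26 (phospholipid synthesis).

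In 67NR, 0 of the 91 list genes tested were called after CIX by limma-voom or edgeR, 11 were called by DESeq2 and 29 had an unadjusted p below 0.05. Of all genes 0.389% were called by limma-voom and 8.98% by DESeq2, and 32.8% had an unadjusted p below 0.05. The medians of the 8 lists lay between -0.11 and 0.16. For the difference in response between the lines, 10 of 103 list genes were called, 5 higher and 5 lower in 4T1, where 7.86% of all genes were called. DESeq2 called 17 of the list genes, against 15.7% of all genes. Ptdss2 (2.04), Camk2d (1.59), Lta4h (1.41), the cyclooxygenase gene Ptgs1 (0.84) and Anxa2 (0.73) responded more in the direction of a rise in 4T1. Pla1a (-1.34), Cyp2j6 (-1.11), Agpat4 (-0.93), Lpin1 (-0.93) and Scd1 (-0.74) responded more in the direction of a fall. Such a difference need not be a fall in 4T1. Agpat4 was at -0.08 in 4T1 (adjusted p = 0.598 in limma-voom) and at 0.85 in 67NR (adjusted p = 0.00171, not called). The medians of the lists lay between -0.65 (other phospholipases) and 0.19 (phospholipid synthesis).

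Between vehicle treated 4T1 and 67NR, 42 of 92 list genes were called, 22 higher and 20 lower in 4T1, and with CIX 33 of 90 were called, 21 higher and 12 lower. Of all genes 40% were called with vehicle and 34.2% with CIX, which is the background of the list counts that follow, and no list was tested against it. The medians of the lists lay between -0.40 (phospholipid synthesis) and 0.51 (lysophospholipid removal) with vehicle and between -0.26 (phospholipid synthesis) and 0.46 (other phospholipases) with CIX. In the arachidonate group 11 of 14 genes were called with vehicle, among them Acsl4 (2.52), Ptgs2 (2.44) and Cbr1 (2.41) higher and Alox5ap (-5.26), Ptgs1 (-2.28) and Ptges (-1.86) lower in 4T1. With CIX 8 of 13 were called, led by Cbr1 (2.15), Acsl5 (1.62) and Ptgs2 (1.52) and by Alox5ap (-5.79), Ptges (-3.13) and Ptgs1 (-1.43). Of phospholipid synthesis, 9 of 20 genes were called with vehicle, Pcyt2 (1.59) and Lpin1 (1.13) higher and 7 lower, led by Ptdss2 (-2.38), Pemt (-1.88) and Chpt1 (-1.80). With CIX, 5 of 20 were called, which were Pcyt2 (1.38), Pcyt1a (0.84), Chpt1 (-1.44), Pisd (-0.99) and Chkb (-0.70).

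Of the other phospholipases, Pla1a (2.60), Pnpla7 (1.94) and Pla2g16 (-1.51) were called with vehicle, and Pla1a (1.27) and Pnpla7 (1.27) with CIX. Of the other acyltransferases, Agpat5 (1.72), Agpat2 (1.67), Tmem68 (1.42), Agpat4 (0.81) and the lysocardiolipin acyltransferase gene Lclat1 (-2.66) were called with vehicle, and Agpat2 (2.37), Agpat5 (1.52) and Lclat1 (-1.31) with CIX. Of lysophospholipid removal, Abhd6 (3.12), Abhd4 (1.94), Lypla2 (1.22) and Abhd12 (-1.68) were called with vehicle, and Abhd6 (4.31), Abhd4 (1.45) and Abhd12 (-0.87) with CIX. Of the ether lipid group, Gnpat (0.93), Tmem189 (0.82) and Far1 (-1.44) were called with vehicle, and Tmem189 (1.15), Gnpat (1.08), Pafah1b3 (0.50) and Far1 (-0.67) with CIX. Of the regulators of cPLA2α, Mknk1 (1.22), Mapk3 (0.43), S100a10 (-1.71) and Camk2d (-1.39) were called with vehicle, and 5 genes with CIX, among them Anxa1 (0.88), Anxa2 (0.87), Mknk2 (0.81) and S100a10 (-1.07). Of the LXR group, Scd2 (1.51), Srebf1 (1.25) and Nr1h3 (-1.73) were called with vehicle, and Scd2 (0.94), Srebf1 (0.92) and Scd1 (-0.63) with CIX. List genes near 0 in either line were left out of these fits by the filter, so larger differences can be missing here. With vehicle, Gdpd1 (lysophospholipid removal) was at 64.8 CPM in 4T1 and 0.0402 CPM in 67NR, and Mboat1 at 12.5 and 0.039 CPM. In the other direction, the phospholipase gene Pla2g2e was at 0.053 CPM in 4T1 and 4.09 CPM in 67NR.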

How the data were processed

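RNA of 4T1 and 67NR cells with vehicle or CIX was sequenced from poly(A) libraries (TruSeq Stranded mRNA), and the authors deposited estimated counts per gene, made with salmon (Salmon 0.12 in the submitters' processing notes) and tximport on the Ensembl GRCm38 mouse annotation. Whether tximport scaled these estimated counts is not given in the sources used here, and only 0.483% of the values above 0 were whole numbers (within 0.001), so that CPM, TPM and the count intervals take them as reads. Here they were rounded to whole numbers, and 32911 of 33072 genes were matched to GENCODE M21 by identifier. TPM was approximated from the mean transcript length of each gene. Genes with TPM below 1 in more than 3 samples of a comparison were left out (for the interaction, only where this held in both cell lines), and limma-voom (limma 3.58.1, edgeR 4.0.16, R 4.3.3) with TMM was fitted to all remaining genes, with Benjamini-Hochberg adjustment. limma-voom, the TPM limit and the threshold of 0.001 follow the study's methods, and TMM, the approximated TPM and the filter in each comparison were chosen here. Each comparison of 2 groups used its own 8 samples, and the difference in response was an interaction over 16 samples. Comparisons share groups.

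Alternatives were the quasi-likelihood test of edgeR, DESeq2 1.42.0, other scaling and filters, all samples in a common fit, quality weights, a threshold of 0.05 and leaving out each sample. The procedure was tested on simulated data. Totals of 21715700 to 29450629 counts put 3 counts, the limit of detection, at 0.11 to 0.137 CPM, and floors and intervals of counts cover counting error only. In transcripts of the members, words of 31 bases that occur in the same direction in transcripts of another gene made up at most 1.67% (Pnpla8). Words on the opposite strand were not counted, so this share leaves out exon overlaps such as that of Lpcat3 with Emg1.

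The members, the gene lists and the tests were chosen with earlier results of these data known. All 10 members are named in every comparison, with Pla2g7 and Lpcat2 untested where the filter left them out. Of each list, all called genes are named where at most 6 were called, and otherwise the 3 with the largest change in each direction. Of the called regulators of cPLA2α, 1 is counted but not reported here. Promoter sequences are from RefSeq (GRCm38.p6), which held all 10 members. Protein sequences were not used here.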

Additional observations from a re-analysis of the deposited data

Results flagged for a closer look

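Pla2g4a in 67NR vehicle replicate 13, at 326 CPM, was far from the other 3 vehicle samples, which lay between 60.2 and 80.9 CPM, by Dixon's test at the 95% level. Pla2g7 met the same test in 67NR vehicle, where replicate 9 was at 0.0787 CPM and the others between 0.0397 and 0.0444 CPM, and in 67NR CIX, where replicate 10 was at 0.183 CPM and the others at 0. The first of these rests on 2 counts as compared to 1 count, below the limit of 3 counts, and the second on 4 counts. Of 40 groups of 4 samples examined, about 2 would be singled out by chance. The response of Lpcat4 to CIX was larger in 4T1 than in 67NR by 0.895 on the log2 scale, by the interaction term of limma-voom (adjusted p = 1.93e-04).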

How the results depend on the processing

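No paired analysis was made because the labels number the samples from 1 to 16, with no number that 2 groups share and no batch named. The numbers repeat the same order of the 4 groups throughout. Whether neighbouring numbers mark a shared batch was not tested, and a pairing by them could change which members are called. Of 772 values of single members under the alternatives, 728 kept their direction and their side of the threshold. In 4T1, the genes called after CIX numbered 3095 with DESeq2, 2689 with all samples in a common fit, 2522 with quality weights, 4982 at a threshold of 0.05 and 286 to 1046 without single samples, as compared to 1084. The members called were 3 with DESeq2, 5 at 0.05 and 0 to 2 without single samples (2 without vehicle replicate 11, which added Pla2g6). In 67NR the genes were 1040, 151, 247 and 2056 under the same settings and 0 to 70 without single samples, as compared to 45, and the members stayed at 0 to 0. Between the lines with vehicle, 7456 genes and 4 members were called at 0.05, 4 members without a filter and with filterByExpr, and 4107 to 4922 genes and 2 to 4 members without single samples. With CIX, 5751 genes and 4 members were called without a filter, 4 members with filterByExpr, 6992 genes and 5 members at 0.05, and 3514 to 4749 genes and 1 to 3 members without single samples. The 2 members added without a filter, with filterByExpr, or without 1 of the 67NR samples were Pla2g7 and Lpcat2, which these settings let into the fit. For the difference in response, DESeq2 called 1981 genes, quality weights 1914 and the threshold of 0.05 3701, with 2 members each (Lpcat4 and Pla2g6), and leaving out samples gave 652 to 1071 genes and 1 to 2 members. The cause was not tested.

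The values that changed sign were all from comparisons in which the member concerned was not called. For Pla2g4a they were -0.081 in 67NR with edgeR and, with quality weights, 0.129 between vehicle treated lines, -0.026 between CIX treated lines and -0.162 for the difference in response, and without single samples the last 3 ranged from -0.587 to 0.225, from -0.073 to 0.192 and from -0.217 to 0.614. Pnpla8 in 4T1 was at 0.043 without a filter, 0.007 with filterByExpr, 0.021 with quality weights and -0.106 to 0.101 without single samples, and its difference in response was -0.003 with no scaling and -0.044 to 0.166 without single samples. In 67NR, Lpcat1 was at -0.028 with quality weights, and without single samples Lpcat1 ranged from -0.014 to 0.113, Mboat7 from -0.051 to 0.142 and Lpcat4 from -0.118 to 0.001. Between vehicle treated lines Lpcat3 was at -0.109 with quality weights and -0.111 to 0.251 without single samples. Between CIX treated lines Mboat7 was at 0.005 without a filter and -0.137 to 0.071 without single samples.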
